A study of Mus musculus with 2 samples.

Results

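The transcripts of 6 genes of the MYC network, *Myc*, *Mycn*, *Mycl*, *Max*, *Mxi1* and *Mga*, were followed in single mouse embryonic stem (ES) cells. They were chosen by symbol and are 6 of the 54146 gene rows in the count tables. This network is a set of basic helix-loop-helix leucine zipper transcription factors that share a partner, MAX, and bind the E-box CACGTG as pairs. MYC, MYCN and MYCL pair with MAX to raise transcription, above all of genes for ribosome production, nucleotide synthesis and growth, while MXI1, a member of the MXD family, pairs with MAX to recruit repressors. MGA carries a T-box domain beside its helix-loop-helix domain and joins MAX in a noncanonical polycomb complex with PCGF6, L3MBTL2 and E2F6, which in mouse ES cells is known for keeping germline genes silent. MYC and MYCN are known for supporting self-renewal of ES cells.

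The tables hold 2 libraries of mouse ES cells made with inDrop, a droplet method that tags the transcripts of each cell with a cell barcode and counts molecules by a unique molecular identifier (UMI). One library was made from wild-type cells (WT) and one from *Lin28a* knockout cells (AKO). LIN28A is an RNA-binding protein that blocks maturation of let-7 microRNAs. Both cultures were grown for 2 days in LIF/2i medium on gelatin with mouse embryonic fibroblast (MEF) feeders. Each genotype was represented by 1 clone, and the knockout was made with a Cas9 guide to the second exon. The labels call both cultures ES cells from the inner cell mass, and they give no strain and no treatment other than the knockout.

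Barcodes were kept as cells where they held 500 UMIs or more and no more than 20% of these were mitochondrial, which left 1856 WT cells with 11639256 UMIs and 1622 AKO cells with 9340855 UMIs. The median depth was 6140 UMIs per cell in the WT and 5063.5 in the AKO library. All 11 ES cell markers were found in both libraries, with summed levels of 5015 and 5110 CPM (UMIs scaled to a total of 1000000), and all 14 fibroblast markers, with 2168 and 1279 CPM. The barcodes in both tables carry running numbers, so barcodes shared between the libraries could not be counted. With 1 library per genotype no test was made, and a difference due to the knockout cannot be told apart from any other difference between the 2 clones or cultures. Intervals in parentheses are exact intervals at 95% that cover counting error only.

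The E-box was searched in the RefSeq promoters of GRCm38.p6, which run from 250 bases before to 50 after each transcription start, because it is the site bound by pairs that contain MAX. The letters CACGTG, which read the same on both strands, occurred in the promoter of 8.09% of 27025 genes and of 11.8% of the 9525 genes that had at least 50 UMIs here. Among the 5 members in the table, only *Max* held them. They occurred for 4 of 7 other network genes, for 12 of 37 genes of a list of MYC-induced targets and for 9 of 13 genes of a list of germline genes known as targets of the MGA complex. In 3 further lists they occurred for 2 of 19 cofactors of MYC, for 2 of 12 partners of MGA and for 1 of 7 genes repressed through MYC, shares of 10.5%, 16.7% and 14.3%. The windows below, with the E-box in capitals, are those of *Max*, of the other network genes with a match, and of the 3 germline genes that were lowest in the AKO library. *Sycp3* has 2 matches, and the one farther from the start is shown.
Max, chr12:76962234-76962263, minus strand: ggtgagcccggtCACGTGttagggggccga
Mlx, chr11:101087238-101087267, plus strand: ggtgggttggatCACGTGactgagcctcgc
Mlxipl, chr5:135089780-135089809, plus strand: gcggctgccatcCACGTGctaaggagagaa
Mnt, chr11:74830789-74830818, plus strand: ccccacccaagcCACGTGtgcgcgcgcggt
Mxd4, chr5:34187912-34187941, minus strand: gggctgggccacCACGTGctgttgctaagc
Ddx4, chr13:112652322-112652351, minus strand: ggcgtccgcccgCACGTGcagccgtttaag
Stk31, chr6:49395472-49395501, plus strand: aggccggccaccCACGTGaccagggctgcg
Sycp3, chr10:88459511-88459540, plus strand: gccgttggctccCACGTGagaacgggcatg

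Because the knockout was aimed at a regulator of let-7, the annotated 3′ UTRs were also searched on the transcript strand for the match of the let-7 seed, bases 2 to 8 of the microRNA, shown in capitals in the RefSeq sequence of let-7a. The 7-letter match CTACCTC was in the 3′ UTR of 1896 of 21832 genes (8.68%) and in none of the 6 members, and it occurred at 2 positions in *Lin28a* itself. The 6-letter match TACCTC, which is part of the 7-letter match, occurred at 2 positions in *Mycn*, at 2 in *Mycl* and at 1 in *Mga*. Both matches of *Mycn*, that of *Mga* and 1 of the 2 of *Mycl* are followed by an A, opposite base 1 of let-7. These sites thus read TACCTCA, 7 letters that the count of CTACCTC does not include. Among genes with a 3′ UTR within 25% of the same length, the 6-letter match was in 17.3% for the 913 bases of *Mycn*, 32.8% for the 1970 bases of *Mycl* and 59.0% for the 4616 bases of *Mga*. The matched windows of *Mycn* and *Mga* in GRCm38 follow, with the match in capitals.
let-7a-5p: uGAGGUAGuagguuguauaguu
Mycn, chr12:12936499-12936528, minus strand: ttcacacctaagtactgtaagaaTACCTCa
Mycn, chr12:12936128-12936157, minus strand: ctgcaccttagagcactttgaaaTACCTCa
Mga, chr2:119965133-119965162, plus strand: ttctgatcatgttaaaaatgtgtTACCTCa
Mature microRNAs were not measured in these libraries, and a match of letters was not tested for function.

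All 6 members were detected in both libraries, and *Mga* had the most UMIs and *Mycl* the fewest in each. *Mycn* stood at 2.40 times the CPM of *Myc* in WT and 1.96 times in AKO cells. In the AKO library *Mga*, *Mycn* and *Max* were lower, with intervals of the ratio that left out 1, and for *Myc*, *Mycl* and *Mxi1* the interval included 1. The fold used as a call was a level in the AKO library at least 1.5-fold above or below that in the WT library. At this fold 9.48% of the 15453 genes with at least 50 UMIs were lower and 10.5% were higher in the AKO library, and of the members 1 was lower and 0 were higher. The median ratio was 0.847 over the 6 members and 1.04 over all genes tested.

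*Myc* (ENSMUSG00000022346.15, chr15:61985391-61990374 of GRCm38, plus strand), the family member first found as a viral oncogene homologue, had 359 UMIs in WT and 254 in AKO cells. That was 30.8 CPM (27.7 to 34.2) against 27.2 CPM (24.0 to 30.8), a ratio of 0.882 (0.748 to 1.04). The counting intervals of the 2 libraries overlapped. *Mycn* (ENSMUSG00000037169.15, chr12:12936093-12941914, minus strand), the paralogue best known from the early embryo and neural progenitors, had 863 and 498 UMIs. Its level was 74.1 CPM (69.3 to 79.3) in WT and 53.3 CPM (48.7 to 58.2) in AKO cells, a ratio of 0.719 (0.643 to 0.804), and only 13.4% of all genes tested had a lower ratio. *Mycl* (ENSMUSG00000028654.13, chr4:122995652-123002485, plus strand), a further paralogue, had 89 and 82 UMIs, which gave 7.65 CPM (6.14 to 9.41) and 8.78 CPM (6.98 to 10.9). With so few UMIs its ratio of 1.15 had an interval of 0.840 to 1.57, so neither an equal level nor a 1.5-fold higher one lay outside the counting error.

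*Max* (ENSMUSG00000059436.13, chr12:76937269-76962201, minus strand), the shared partner, had 734 UMIs in WT and 479 in AKO cells, or 63.1 CPM (58.6 to 67.8) and 51.3 CPM (46.8 to 56.1). The ratio was 0.813 (0.723 to 0.914), below 1 but short of the fold. *Mxi1* (ENSMUSG00000025025.13, chr19:53310518-53375810, plus strand), the MXD-type repressor, had 265 and 229 UMIs, or 22.8 CPM (20.1 to 25.7) and 24.5 CPM (21.4 to 27.9), a ratio of 1.08 (0.898 to 1.29). *Mga* (ENSMUSG00000033943.15, chr2:119897228-119969581, plus strand), the scaffold of the polycomb complex, had 2415 UMIs in WT and 1291 in AKO cells. Its level of 207 CPM (199 to 216) in WT cells stood against 138 CPM (131 to 146) in AKO cells. The ratio of 0.666 was the lowest of the 6 and just reached the fold, while its interval of 0.622 to 0.713 ran across it.

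**Figure D1:**
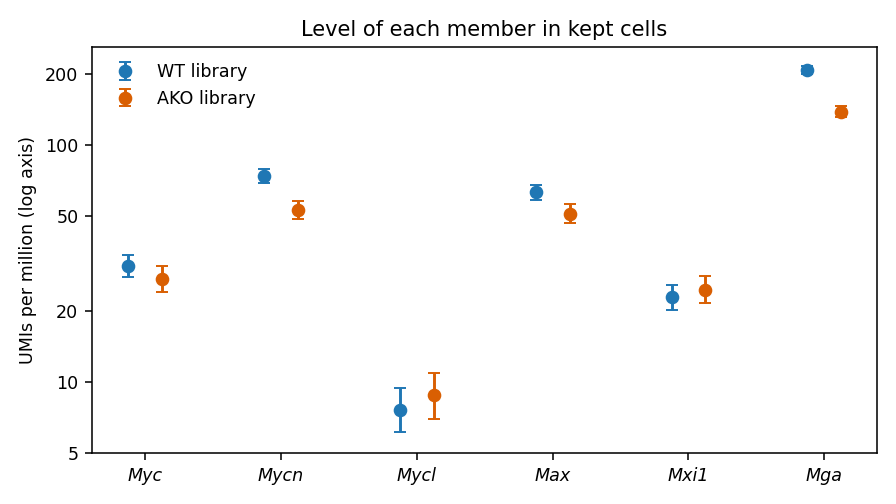
Level of each member in the kept cells of the WT (blue) and AKO (orange) library, in CPM on a log axis, with exact Poisson intervals at 95%. The intervals of the 2 libraries are apart for *Mycn*, *Max* and *Mga*, and overlap for *Myc*, *Mycl* and *Mxi1*.

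The order of the members changed when CPM were divided by exon length. By CPM, which counts transcripts near their 3′ end, WT cells had *Mga*, *Mycn*, *Max*, *Myc*, *Mxi1* and *Mycl* from highest to lowest, and no neighbouring intervals overlapped. In AKO cells the order was the same, but the intervals of *Mycn* and *Max* overlapped, as did those of *Myc* and *Mxi1*. Per kilobase of annotated exon, *Mycn* led in WT cells with 22.5 CPM per kb, before *Max* with 17.5, *Mga* with 13.5, *Myc* with 11.4, *Mxi1* with 3.34 and *Mycl* with 1.89. The 15340 exonic bases of *Mga* were the most among the members, against 2717 for *Myc*. Since a UMI counts a molecule once whatever its length, this division lowers long genes and does not rank the members by abundance. UMIs that the tables count as ambiguous between genes were 0 to 3 per member and library.

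Most cells held no UMI of a given member, with *Mga* in WT cells as the exception. A *Mga* UMI was found in 61.5% of WT cells (59.3 to 63.8) and 38.7% of AKO cells (36.3 to 41.1). A *Mycn* UMI was found in 30.0% of WT cells (27.9 to 32.2) and 19.4% of AKO cells (17.5 to 21.4), and a *Max* UMI in 29.8% (27.7 to 31.9) and 21.3% (19.3 to 23.3). *Myc* was seen in 15.7% and 11.6% of cells, *Mxi1* in 12.1% and 11.3%, and *Mycl* in 4.42% and 4.44%. These shares move with depth, so each cell was also taken at 500 UMIs by the hypergeometric distribution. At that depth *Mga* was in 9.84% of WT and 6.68% of AKO cells, *Mycn* in 3.43% and 2.14%, *Max* in 2.92% and 2.16%, *Myc* in 1.40% and 1.27%, *Mxi1* in 1.20% and 0.939%, and *Mycl* in 0.359% and 0.403%. For *Mxi1* this share was thus lower in AKO cells although its CPM was higher. As a background, *Pou5f1*, which fibroblasts lack, was seen in 1 of 31 WT cells rich in collagen transcripts, which had a median of 9310 UMIs. Of all 11 ES cell markers, 9 were found in those cells, with a summed level of 886 CPM against 5131 CPM in the other cells. A cell without a UMI of a member may still express it.

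In cells with at least 2000 UMIs, the variance over the value that depth alone would give was 1.41 for *Mycn* and 1.40 for *Mga* in WT cells. In AKO cells it was 1.46 and 1.62. The median over genes with 50 to 3000 UMIs, a range much wider than the level of any 1 member, was 1.07 in WT and 1.10 in AKO cells. *Max* had 1.11 and 1.06. *Myc* had 1.13 and 1.28, *Mxi1* 1.24 and 1.04, and *Mycl* 1.12 and 0.966. The highest count in a single cell was 16 UMIs for *Mga* and 9 for *Myc*, both in AKO cells, and 7 for *Mycn*, in a WT cell.

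The ratios were also taken within ranges of depth. In cells of 5000 to 10000 UMIs, a range that held 1042 WT and 507 AKO cells, the ratio was 0.512 (0.457 to 0.571) for *Mga*. There it was 0.608 (0.510 to 0.722) for *Mycn*, 0.704 (0.540 to 0.911) for *Myc*, 0.751 (0.627 to 0.898) for *Max*, 0.957 (0.713 to 1.28) for *Mxi1* and 1.02 (0.619 to 1.66) for *Mycl*. In this range 2 of the 6 members, *Mga* and *Mycn*, were lower by the fold, beside 15.2% of the 12508 genes tested there.

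In cells of at least 10000 UMIs, of which there were 192 in the WT and 314 in the AKO library, the ratios of *Mga*, *Mycn* and *Max* lay nearer to 1. *Mga* had a ratio of 0.869 (0.770 to 0.981), with an interval apart from that in cells of 5000 to 10000 UMIs. The other ratios were *Mycn* 0.855 (0.705 to 1.04), *Max* 0.898 (0.735 to 1.10), *Myc* 1.06 (0.800 to 1.42) and *Mycl* 1.41 (0.811 to 2.55). *Mxi1* was higher in the AKO cells of this range, 1.60 (1.15 to 2.26), and lower in those of 2000 to 5000 UMIs, 0.425 (0.223 to 0.760). Its ratio near 1 over all cells thus held opposite differences in shallower and deeper cells. A lower ratio in the range of 2000 to 5000 UMIs was not particular to *Mxi1*, since every member had a lower ratio there than at 10000 UMIs or more. From 2000 to 5000 UMIs *Myc* had 0.652 (0.362 to 1.13), *Mycn* 0.685 (0.472 to 0.980) and *Mycl* 0.403 (0.0981 to 1.25). *Max* had 0.553 (0.368 to 0.815) there and *Mga* 0.591 (0.477 to 0.728). The share of all genes that differed was not taken in either range.

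**Figure D2:**
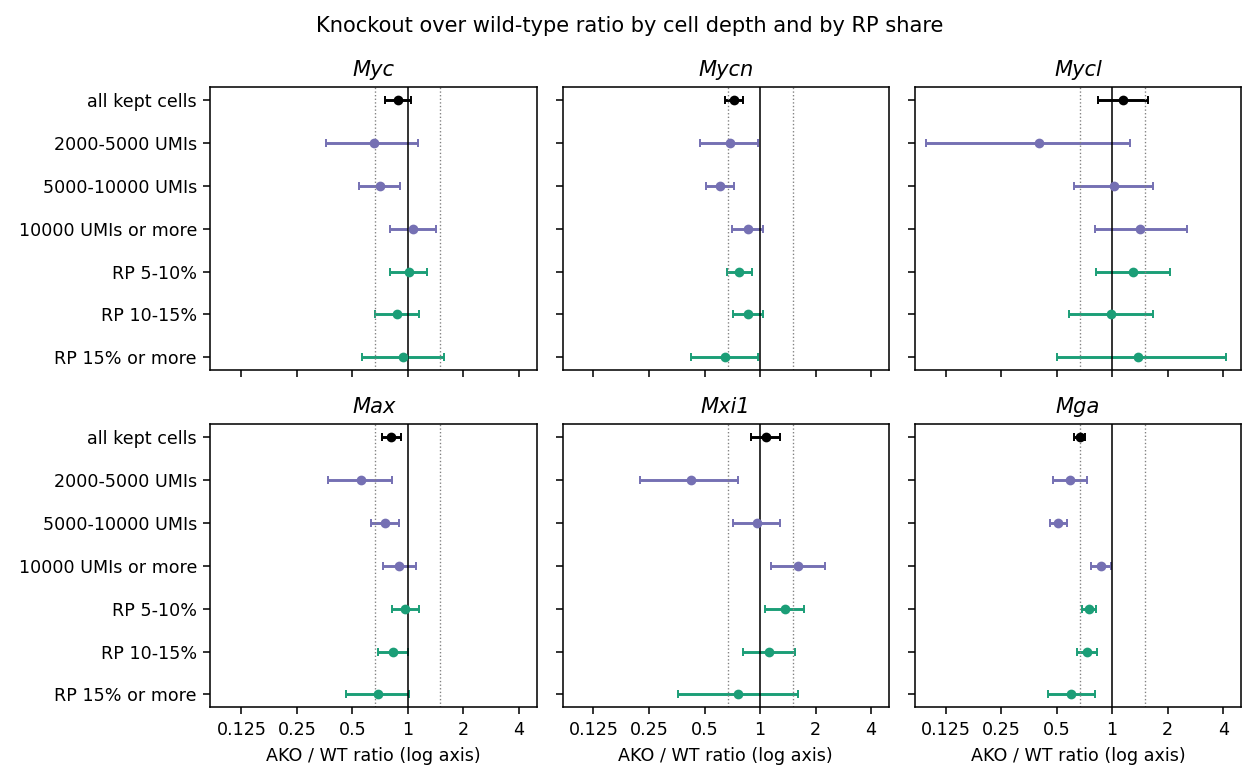
Ratio of AKO over WT for each member in all kept cells (black), in ranges of UMIs per cell (purple) and in ranges of ribosomal protein (RP) share (green), on a log axis with exact intervals at 95%. Dotted lines mark the 1.5-fold limits. The green ratios are scaled to UMIs outside RP genes and the others to all UMIs. Cells under 5% RP share are not drawn, and *Mga* had a ratio of 1.92 there. *Mga*, *Mycn* and *Max* lie below 1 in the 7 rows drawn, and *Myc*, *Mycl* and *Mxi1* lie on both sides of 1.

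The members were next set against the ribosomal protein (RP) share, here the percentage of UMIs in a cell that fell on 87 RP genes. To keep a high RP share from lowering the members by construction, CPM in this comparison and in that by *Ncl* level were scaled to the UMIs outside RP genes. Cells with at least 2000 UMIs were split by rank into 3 groups of equal size (terciles) within each library. In WT cells the terciles met at 8.96% and 10.9% RP share, and in AKO cells at about 9.83% and 13.5%.

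All members but *Mycl* had their lowest level in the upper RP tercile of both libraries. Lower levels there were common, since only 45.1% of all genes in WT and 44.3% in AKO cells were above 1 against the lower tercile. Ranked by this ratio among all genes, *Mga* stood at percentile 12.1 in WT and 8.14 in AKO cells and *Mxi1* at 23.5 and 13.3. *Mycn* stood at 35.3 and 19.7, *Myc* at 37.2 and 33.3, *Max* at 50.1 and 26.4, and *Mycl* at 72.9 and 43.2. *Mga* had levels of 299, 267 and 127 CPM in the lower, middle and upper tercile of WT cells and of 223, 163 and 46.9 in AKO cells. The upper tercile was thus at 0.424 (0.378 to 0.476) of the lower one in WT and at 0.210 (0.168 to 0.260) in AKO cells. *Mxi1* went from 31.6 to 26.1 and 17.6 in WT and from 40.8 to 29.6 and 11.3 in AKO cells, ratios of 0.556 (0.398 to 0.771) and 0.276 (0.170 to 0.431). In this split the intervals of *Mxi1* overlapped those of *Mycn* in both libraries.

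*Mycn* held its level up to the middle tercile and was lower only in the upper one. Its levels were 91.2, 95.4 and 63.5 CPM in WT and 72.2, 78.4 and 25.8 in AKO cells, ratios of 0.696 (0.581 to 0.831) and 0.358 (0.261 to 0.483). *Myc* had 41.1, 33.8 and 29.5 in WT and 35.9, 34.7 and 19.7 in AKO cells, with ratios of 0.717 (0.549 to 0.934) and 0.549 (0.374 to 0.792). Both intervals of *Myc* left out 1 here, but the WT ratio was 0.802 (0.609 to 1.05) without the collagen-rich cells described below, 20 of which lay in the lower WT tercile, and the AKO ratio was 0.740 (0.510 to 1.07) over all kept cells. *Max* had 72.1, 75.8 and 65.6 in WT cells, a ratio of 0.909 (0.755 to 1.09), and 70.1, 69.4 and 31.0 in AKO cells, a ratio of 0.442 (0.329 to 0.586). *Mycl* had 22, 37 and 29 UMIs in the WT and 33, 27 and 17 in the AKO terciles, and the intervals of both its ratios included 1.

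By the fold, 2 of the 6 members were lower in the upper tercile of WT cells, where 32.8% of 11083 genes were lower and 22.9% higher. In AKO cells 5 of 6 were lower, beside 40.9% of 10156 genes lower and 27.7% higher. A large part of all genes thus differed between the terciles, with medians of 0.906 in WT and 0.851 in AKO cells. Other features moved with the terciles: from the lower to the upper tercile the median mitochondrial share went from 1.87% to 0.581% in WT and from 2.60% to 0.274% in AKO cells. Median depth was 6478 and 6475 UMIs in the WT and 8182 and 6637.5 UMIs in the AKO terciles. The share of UMIs on long intergenic noncoding RNAs had medians of 3.28% and 1.80% in WT and 2.59% and 1.09% in AKO cells. The 14 fibroblast markers summed to 3768 and 1725 CPM in WT and 1695 and 1227 CPM in AKO cells, the 11 ES cell markers to 5145 and 6265 CPM and to 5483 and 6481 CPM, and collagen-rich cells numbered 20 and 6 in WT and 2 and 5 in AKO. The part of these features in the result was not tested.

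Because the terciles met at other shares in the 2 libraries, the libraries were also compared within fixed ranges of RP share, a choice made after seeing the data. The AKO library had more cells at 15% or more, 21.9% (19.9 to 24.0) against 12.2% (10.7 to 13.8), and fewer from 5 to 10%, 27.1% against 50.2%. In the range from 5 to 10%, *Mga* had 293 CPM in WT and 219 in AKO cells, a ratio of 0.748 (0.683 to 0.819), and *Mycn* had 97.1 and 75.1, a ratio of 0.773 (0.660 to 0.903). In the same range *Myc* was level between the libraries at 36.8 and 37.2 and *Max* had 73.4 and 71.1, with ratios of 1.01 (0.798 to 1.28) and 0.969 (0.819 to 1.14). *Mxi1* was higher there in AKO cells, 40.5 against 29.8, a ratio of 1.36 (1.07 to 1.72).

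At 15% or more, all 6 members were lower by the fold than from 5 to 10% in both libraries, beside 41.9% of 11309 genes lower and 26.8% higher in WT and 41.4% of 10021 genes lower and 28.3% higher in AKO cells. For *Mycl* these ratios were 0.556 (0.213 to 1.23) and 0.590 (0.279 to 1.16), with intervals that included 1. *Mga* had 78.7 CPM in WT and 47.2 in AKO cells there, a ratio of 0.600 (0.447 to 0.803). *Mycn* had 38.3 and 24.7, a ratio of 0.646 (0.424 to 0.977), while from 10 to 15% its ratio was 0.862 (0.715 to 1.04). *Max* at 15% or more had 41.8 and 28.7, a ratio of 0.686 (0.463 to 1.01). Across the 3 ranges from 5% upwards the ratio of *Mga* was 0.748, 0.727 and 0.600. Over all kept cells it was 0.673 (0.629 to 0.721) when also scaled to UMIs outside RP genes, which is short of the fold. For *Max* the ratio went from 0.969 to 0.829 and 0.686, and only the last 2 of these came near or below the 0.822 over all cells on that scale.

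Under 5% RP share the libraries differed in depth and number, with 91 WT cells of a median of 830 UMIs and 233 AKO cells of 1214 UMIs, and with median mitochondrial shares of 4.32% and 5.98%. *Mga* had 15 UMIs in those WT cells, 157 CPM (88.0 to 259), and 96 UMIs in those AKO cells, 302 CPM (245 to 369). This was the one range of RP share in which *Mga* was higher in the AKO library, with a ratio of 1.92 (1.11 to 3.57). The other 5 members had 9 UMIs together in the WT and 31 in the AKO cells of this range, too few to set side by side.

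**Figure D3:**
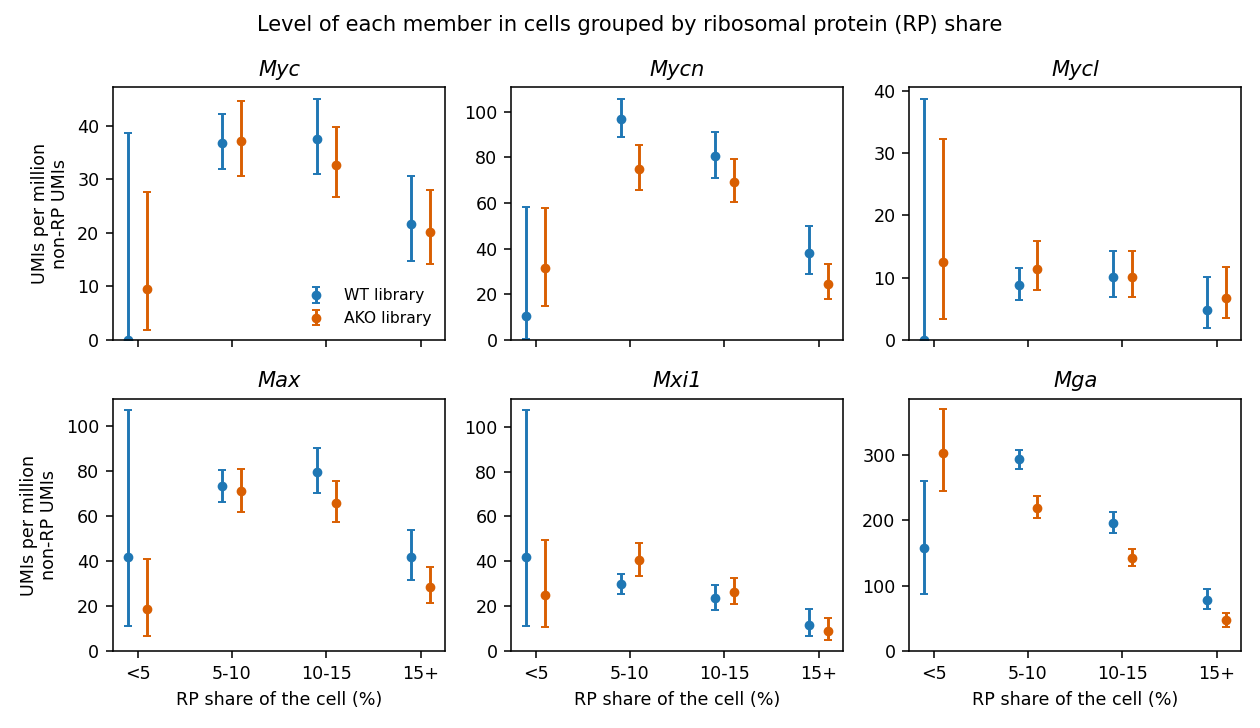
Level of each member, in CPM scaled to UMIs outside RP genes, in cells grouped by RP share (under 5%, 5 to 10%, 10 to 15%, 15% or more) of the WT (blue) and AKO (orange) library, with exact Poisson intervals at 95%. From 5 to 10% up to 15% or more, *Mga* goes from 293 to 78.7 in WT and from 219 to 47.2 in AKO cells.

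*Ncl* encodes nucleolin, an abundant nucleolar protein and a known MYC target. *Ncl* itself had 2540 CPM in WT and 1555 CPM in AKO cells, a ratio of 0.612 (0.600 to 0.624). When cells with at least 2000 UMIs were split into terciles by *Ncl* level, 0 members differed by the fold in either library, beside 11.8% of genes in WT and 7.53% in AKO cells that differed in either direction. *Mga* was the one member whose interval left out 1 in both libraries. It also had the most UMIs and the narrowest intervals, and these overlapped the intervals of every other member in the same library. *Mga* had 200, 245 and 255 CPM in the lower, middle and upper WT tercile and 141, 143 and 175 in the AKO terciles, ratios of 1.28 (1.15 to 1.41) and 1.24 (1.07 to 1.43).

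For *Mycn*, *Myc* and *Max*, which would form the activating pairs, the intervals by *Ncl* level included 1. For *Mycn* the ratio was 1.15 (0.967 to 1.37) in WT and 1.16 (0.915 to 1.47) in AKO cells, and over all kept AKO cells it was 1.34 (1.04 to 1.73). *Myc* had 0.956 (0.733 to 1.24) and 1.26 (0.883 to 1.80), and *Max* 1.02 (0.847 to 1.22) and 0.964 (0.759 to 1.23). *Mxi1* had 1.18 (0.870 to 1.61) and 1.19 (0.847 to 1.69), and *Mycl* 0.845 (0.487 to 1.45) and 0.970 (0.514 to 1.85). Of the collagen-rich cells described below, 30 in the WT and 8 in the AKO library lay in the lower *Ncl* tercile and none in the others. Without them each of these ratios stayed inside its interval. The calls in AKO cells depended on depth: in those of 5000 to 10000 UMIs, *Max* had 0.628 (0.419 to 0.933) and *Mxi1* 2.01 (1.06 to 3.99), both past the fold, beside 8.83% of the 6633 genes tested there that differed in either direction. In WT cells of that depth 0 members were past it, beside 8.92% of genes.

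**Figure D4:**
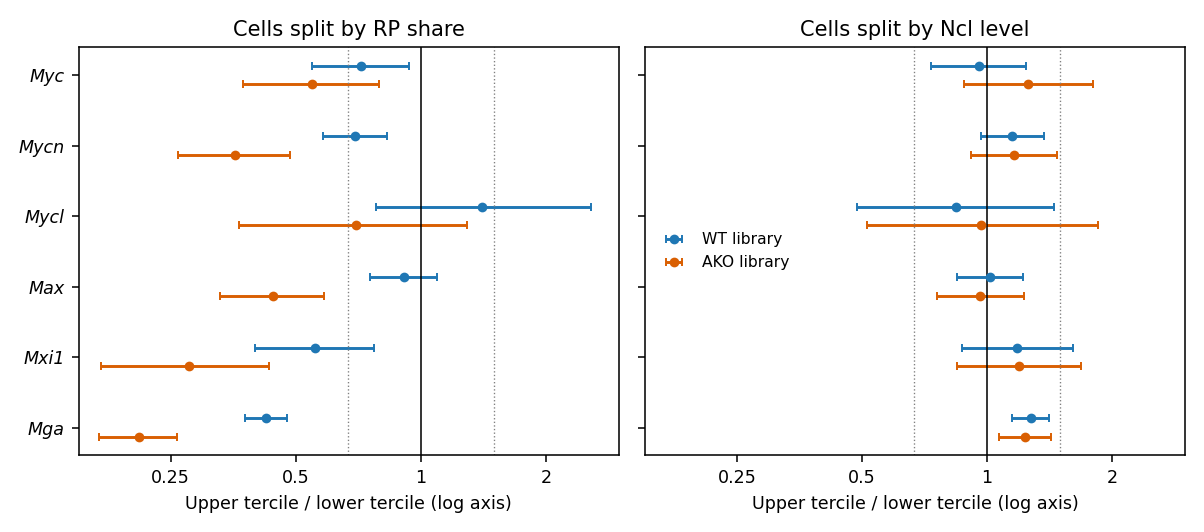
Ratio of the upper over the lower tercile of cells by RP share (left) and by *Ncl* level (right) for each member in the WT (blue) and AKO (orange) library, on a log axis with exact intervals at 95% and dotted lines at the 1.5-fold limits. By RP share *Mga* lies at 0.424 and 0.210, and by *Ncl* level at 1.28 and 1.24.

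Cells with at least 1% of their UMIs on *Col1a1*, *Col1a2* and *Col3a1* were looked at by themselves, since MEF feeders were in the culture. There were 31 such WT cells and 16 such AKO cells, and a cut on a share gives a range of cells and not a type. In the WT cells of this range all 14 fibroblast markers were found, summing to 40042 CPM against 1100 CPM in the other cells. Of the 11 ES cell markers 9 were found there, summing to 886 CPM against 5131 CPM in the other cells, and *Pou5f1* had 1 UMI. *Myc* was higher there, with 19 UMIs or 59.5 CPM (35.8 to 92.9) against 30.0 CPM (26.9 to 33.4) in the other cells, a ratio of 1.98 (1.18 to 3.14).

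*Mycn* went the other way in these WT cells, with 4 UMIs or 12.5 CPM (3.41 to 32.1) against 75.9 CPM (70.9 to 81.1), a ratio of 0.165 (0.0449 to 0.424). *Mga* had 132 CPM (94.8 to 178) against 210 CPM (201 to 218). *Max* was at a like level, 68.9 CPM (43.2 to 104) against 62.9 CPM (58.4 to 67.7), and *Mxi1* had 6 and *Mycl* 0 UMIs. For *Mycl* the floor of 3 counts is 9.40 CPM, above its level in the other cells. In the 16 AKO cells of this range *Myc* had 2 UMIs, *Mycn* 0, *Max* 2, *Mxi1* 3, *Mycl* 1 and *Mga* 4, with a floor of 41.2 CPM, so no order can be read there.

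The share of cells with a *Mycn* UMI was compared between cells with and without a *Myc* UMI, and the intervals overlapped in each of 3 depth ranges of both libraries. In WT cells of 5000 to 10000 UMIs, a *Mycn* UMI was in 35.2% (28.5 to 42.4) of the 193 cells with a *Myc* UMI and in 36.3% (33.0 to 39.6) of the others. In AKO cells of that range the shares were 24.2% (14.5 to 36.4) and 24.0% (20.1 to 28.3). The shares lay furthest apart in AKO cells of at least 10000 UMIs, 55.3% (44.7 to 65.6) of 94 cells with and 41.8% (35.2 to 48.6) of those without a *Myc* UMI. In AKO cells of 2000 to 5000 UMIs they were 18.8% (4.05 to 45.6) of only 16 cells and 11.0% (7.54 to 15.3). The median depth of AKO cells with and without a *Myc* UMI was 13018.5 and 12005 UMIs in the deepest range. It was 4346 and 3360 UMIs in the range from 2000 to 5000 UMIs.

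When cells with at least 2000 UMIs were put into 10 equal groups by RP share in each library, the levels of *Mycn* and *Mga* over the 20 groups had a Pearson r of 0.940, the highest among the 5 members with at least 200 UMIs. *Mycn* and *Max* had 0.925, and the lowest pair was *Mycn* and *Mxi1* with 0.817. The higher pairs joined *Mga* (3572 UMIs), *Mycn* (1335) and *Max* (1188), and no pair with *Myc* (598) or *Mxi1* (482) was above 0.863. Beyond that the order of the pairs did not go with the number of UMIs. *Myc* and *Mxi1*, with the fewest UMIs, had 0.863, while *Mga* had 0.826 with *Mxi1* and 0.821 with *Myc*. The part of counting noise in this order was not tested. Out of 9692 genes, the ones most like *Mga* were *Dek* (0.993), *Ep300* (0.993) and *Rad21* (0.992). Most like *Mycn* were *Mettl9* (0.963), *Arglu1* (0.963) and *Spp1* (0.962), and most like *Max* were *Hacd2* (0.941), *Pcna-ps2* (0.940) and *Ctnna1* (0.939). For *Myc* they were *Hbs1l* (0.902), *Aard* (0.901) and *Cenpq* (0.898), and for *Mxi1* *Atp6v1c1* (0.930), *Lbr* (0.922) and *Spcs3* (0.919). The points share their libraries and their order by RP share, and so much of the transcriptome moves along that order that these values only describe likeness. *Pcna-ps2* is a pseudogene of *Pcna*, and its reads cannot be told apart from those of the parent gene here.

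The other 7 network genes, which encode the further MAX partners MXD1, MXD3, MXD4 and MNT and the parallel MLX branch, were compared at the same fold. Of them 0 were lower and 1 was higher by the fold, with a median ratio of 1.03, beside 9.48% and 10.5% of all genes. *Mxd3*, known for its expression in S phase, was the one that was higher, with 44 UMIs in WT and 57 in AKO cells, a ratio of 1.61 (1.07 to 2.45). *Mlx* had 0.948, *Mxd4* 0.954, *Mlxip* 0.977, *Mnt* 1.13 and *Mlxipl* 1.14. Without the collagen-rich cells *Mxd4* turned to 1.42 (0.926 to 2.19), on 43 WT and 50 AKO UMIs.

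Among 20 cofactors and turnover factors of MYC, 2 were lower and 0 higher, with a median of 1.03. That share was near the 9.48% of all genes that were lower. The lower ones were *Gsk3b*, the kinase that marks MYC for degradation, with 168 CPM in WT and 106 CPM in AKO cells and a ratio of 0.628 (0.581 to 0.678), and *Skp2*, a ubiquitin ligase subunit that acts on MYC, with 0.655 (0.566 to 0.758). *Cip2a*, which protects MYC from dephosphorylation, had 0.678. At the other end stood *Wdr5*, which tethers MYC to chromatin, with 1.37 (1.30 to 1.45). *Zbtb17*, which encodes the MYC partner MIZ1, had 1.34 (0.948 to 1.89), an interval that included 1.

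Of 15 genes for partners of MGA in the polycomb complex, 2 were lower and 0 higher, and the median was 0.837 beside 1.04 over all genes. The 13.3% that were lower stood near the 9.48% of all genes. *Rybp*, a RING-binding subunit, had 155 CPM in WT and 97.0 CPM in AKO cells, a ratio of 0.624 (0.576 to 0.676). *Cbx3*, the heterochromatin protein HP1 gamma, had 514 and 333 CPM, a ratio of 0.647 (0.620 to 0.676), and *Yaf2*, the paralogue of *Rybp*, had 0.726. *Wdr5*, which is in both lists, *Ring1* with 1.34 (0.998 to 1.81) and the histone methyltransferase gene *Ehmt2* with 1.26 (1.12 to 1.41) had the highest ratios. The interval of *Ring1* included 1.

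Of 14 germline genes known as targets of this complex, 7 had at least 50 UMIs, and of these 3 were lower and 0 higher in the AKO library, with a median of 1.04. Beside 9.48% of all genes this was 42.9%, but of few genes with few UMIs. The count was 5 of 13 genes with a minimum of 10 UMIs per gene and 0 of 1 gene with a minimum of 200. The share of all genes was not taken at these 2 minima. The RNA helicase gene *Ddx4* had 48 UMIs in WT and 13 in AKO cells, a ratio of 0.337 (0.168 to 0.633). *Stk31* had 42 and 13 UMIs, a ratio of 0.386 (0.190 to 0.732), and *Sycp3*, of the synaptonemal complex, 129 and 48 UMIs, a ratio of 0.464 (0.326 to 0.651). *Taf7l* had 1.44 (0.822 to 2.53), *Dazl* 1.36 (1.08 to 1.73) and *Hormad1* 1.03 (0.659 to 1.62). The promoters of all 3 genes that were lower hold the E-box, as shown above, and so do those of *Taf7l*, *Hormad1* and *Stag3*, which make up 3 of the 4 genes compared that were not lower.

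Of the 42 MYC-induced targets, 4 were lower and 2 higher by the fold, and the median was 1.05. These are 9.52% and 4.76% of the list, beside 9.48% lower and 10.5% higher among all genes. The lower ones were the cyclin gene *Ccnd2* with 0.475 (0.432 to 0.522), the transferrin receptor gene *Tfrc* with 0.513 (0.434 to 0.605), the nucleolar GTPase gene *Gnl3* with 0.578 (0.551 to 0.607), and *Ncl*. Without the collagen-rich cells, of which WT had more, *Ccnd2* had 561 UMIs in WT and 441 in AKO cells and a ratio of 0.960 (0.846 to 1.09), so 3 targets were lower, while *Tfrc* had 0.506 and *Gnl3* 0.573. *Ldha*, a glycolytic enzyme, with 1.56 (1.47 to 1.66), and *Srm*, the spermidine synthase, with 1.56 (1.45 to 1.68), were higher, and *Cad*, of pyrimidine synthesis, had 1.47. By RP share 29 of the 41 targets tested were above 1 in the upper against the lower tercile of WT cells, and 28 of 41 in AKO cells, beside 45.1% and 44.3% of all genes. By the fold 15 were higher and 4 lower in WT cells, beside 22.9% and 32.8% of all genes, and 15 higher and 6 lower in AKO cells, beside 27.7% and 40.9%. *Ncl* itself was below 1 in this split, with 0.912 (0.887 to 0.939) in WT and 0.898 (0.861 to 0.937) in AKO cells. The members had a median ratio of 0.706 in WT and 0.400 in AKO cells in the same split, with *Mycl* at 1.40 in WT cells.

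Of 10 genes known to be repressed through MYC, 7 could be compared, 3 were lower and 0 higher, and the median was 0.714. This was 42.9% lower beside 9.48% of all genes. The count was 5 of 10 genes with a minimum of 10 UMIs per gene and 1 of 4 with a minimum of 200, where the share of all genes was not taken. The cell cycle inhibitor *Cdkn1b* had 28.1 CPM in WT and 11.5 CPM in AKO cells, a ratio of 0.408 (0.325 to 0.509), *Ndrg1* had 0.436 (0.300 to 0.621) and the inhibitor *Cdkn2b* 0.649 (0.424 to 0.979). Part of this list moved with the feeder markers, which summed to 2168 CPM in WT and 1279 CPM in AKO cells. Without the collagen-rich cells *Cdkn2b* turned to 1.80 (1.003 to 3.30) on 21 WT and 31 AKO UMIs, *Ndrg1* had 0.647 (0.419 to 0.982) and *Cdkn1b* 0.408 (0.325 to 0.510). With those cells left out 2 of the 7 genes were lower and 1 higher, and the median was 0.906. Over all kept cells *Gadd45a* with 1.15, *Ndrg2* with 1.12 and *Hbp1* with 0.903 had the highest ratios of this list. *Lin28a*, the targeted gene, had 107 CPM in WT and 36.6 CPM in AKO cells, a ratio of 0.343 (0.304 to 0.387), and counts near the 3′ end do not check an edit in the second exon.

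**Figure D5:**
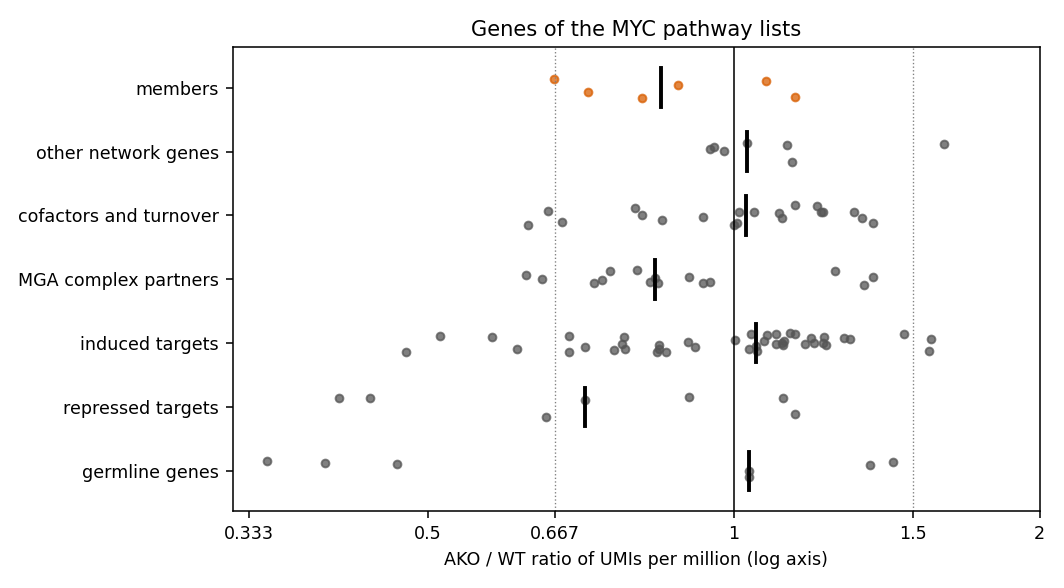
Ratio of AKO over WT, on a log axis, for the 6 members (orange) and for the genes with at least 50 UMIs of 6 lists of the MYC pathway (grey). Each point is 1 gene, black bars are medians, dotted lines mark the 1.5-fold limits and vertical scatter has no meaning. The medians are 0.847 for the members, 0.837 for the partners of MGA and 1.05 for the induced targets.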

How the data were processed

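The data were 2 inDrop libraries. UMI counts of every barcode, without normalization, were deposited by the authors, who used a published inDrop pipeline; the processing notes name Seurat 2.3.4 and mm10, and the aligner is not given in the sources used here. Gene rows were named through GENCODE M21 (GRCm38), in which 54079 of 54146 identifiers matched without their version. Members and lists were chosen with earlier results of these data known. Counts were summed over kept cells, and ratios have exact conditional binomial intervals. In comparisons across all genes 0.5 was added to each count. The genes named are the members, *Ncl*, *Lin28a*, the 3 highest and 3 lowest ratios of each list and, for likeness, the 3 highest r of log2(CPM + 10), and 1 gene named by this rule is not reported here. Alternatives were other limits for cells, depths, denominators and scalings, and removal of doublets (27 WT and 18 AKO cells by Scrublet, which were kept in the values reported). Scripts were tested on simulated counts. Intervals were made with scipy 1.17.1, doublets were called with scanpy 1.11.5, figures drawn with matplotlib 3.10.9, and tables handled with pandas 2.3.3 and numpy 2.4.6 in Python 3.11.15. The bulk RNA-seq and repeat elements were not analysed here.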

Additional observations from a re-analysis of the deposited data

Results flagged for a closer look

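The ratios of 3 members lay on opposite sides of 1 in the 2 libraries, and the difference between the libraries was not tested. *Mycl* in the upper over the lower RP tercile was 1.40 (0.779 to 2.56) in WT and 0.700 (0.366 to 1.29) in AKO cells. *Myc* in the upper over the lower *Ncl* tercile was 0.956 in WT and 1.26 in AKO cells, and *Max* 1.02 and 0.964. Every one of these intervals included 1.

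Barcodes with fewer than 500 UMIs, which are not among the kept cells, also held the members. In 2472 WT barcodes with a median of 147 UMIs there were 187 UMIs of the 6 genes, 426 CPM (367 to 492), against 406 CPM in kept cells. In 4423 AKO barcodes with a median of 129 UMIs there were 270, or 401 CPM (355 to 452), against 303 CPM (292 to 315) in kept cells. For *Mycn* the AKO barcodes gave 110 CPM (86.3 to 138) against 53.3 CPM in kept cells, and for *Mxi1* 55.0 CPM (38.7 to 75.8) against 24.5 CPM. In the WT barcodes *Mycn* had 105 CPM (76.7 to 140) against 74.1 CPM, and *Mxi1* 31.9 CPM (17.4 to 53.5) against 22.8 CPM. The intervals of *Mycn* in these barcodes thus overlapped between the libraries. *Mga* had 180 CPM (142 to 224) against 207 CPM in WT and 129 CPM (104 to 159) against 138 CPM in AKO. Both of its intervals included the level in kept cells, as did that of *Mxi1* in the WT barcodes. The floors of 3 counts were 6.83 and 4.46 CPM.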

How the results depend on the processing

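There was 1 library per genotype, so nothing here measures the spread between cultures. Depth limits *Mycl*, with 89 and 82 UMIs, and the 16 collagen-rich AKO cells. Of 100 alternative values for the 6 ratios between the libraries 83 stayed inside the counting interval of the reported value. In cells under 5% RP share, a range added after seeing the data, *Mga* turned to 1.92 and *Mycn* to 3.002 (0.427 to 130, on 1 WT UMI), *Max* had 0.450 and *Mxi1* 0.600 on 4 WT UMIs each, and *Myc* and *Mycl* gave no value, with 0 WT UMIs. Under the other alternatives no ratio whose interval left out 1 changed its direction. In cells of 5000 to 10000 UMIs the ratio moved to 0.704 for *Myc*, 0.608 for *Mycn* and 0.512 for *Mga*. The mean over cells of each cell's CPM gave 0.619 for *Mycn* and 0.770 for *Mxi1*. In the higher ranges of RP share, also added after seeing the data, *Mycn* had 0.862 from 10 to 15%, *Max* 0.969 from 5 to 10% and 0.686 at 15% or more, *Mxi1* 1.36 and 0.760 in these same 2 ranges, and *Mga* 0.748, 0.727 and 0.600 in the 3 ranges from 5% upwards.

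By RP share, setting WT cells at 15% or more against those from 5 to 10% moved the ratio to 0.395 for *Mycn*, 0.556 for *Mycl*, 0.569 for *Max*, 0.397 for *Mxi1* and 0.269 for *Mga*, and the other 55 alternative values stayed inside their intervals. For *Mycl* this turned the reported 1.40, whose interval included 1, to the other side. By *Ncl* level in cells of 5000 to 10000 UMIs, *Max* had 1.24 in WT and 0.628 in AKO cells, *Mxi1* 2.01 and *Mga* 1.45 in AKO cells. *Mycn* over all kept AKO cells had 1.34. All 20 alternative values for collagen-rich cells stayed inside their intervals. With a minimum of 200 UMIs per gene, 0 of 4 other network genes were higher, and 1 of 4 repressed genes and 0 of 1 germline gene were lower. A minimum of 10 UMIs gave 5 of 10 repressed and 5 of 13 germline genes lower. Without collagen-rich cells, an alternative added after seeing the data, 1 repressed gene was higher, *Cdkn2b*, and 3 targets and 2 repressed genes were lower. The changes with the minimum of UMIs follow from which genes were compared, and for the others the cause was not tested. No paired analysis was possible because each genotype has 1 library and no test was made.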
